A study of Mus musculus with 3 samples.

Results

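The levels of 4 Notch receptor genes, 3 ligand genes and 3 target genes were followed across cultured mouse embryo fibroblasts (MEFs). They are Notch1, Notch2, Notch3 and Notch4, the ligands Jag1, Jag2 and Dll1, and the targets Hes1, Hey1 and Heyl. They were chosen by name, and all 10 were found among the 21782 genes of the count table. The samples were 3 polyA-selected RNA libraries of wild-type (WT) MEFs from E12.5 embryos, grown asynchronously, with 1 library from each of 3 clones. All samples were of 1 condition, with no mutant and no manipulation of the Notch pathway, so each value describes unperturbed cells and no groups were compared. A clone number here stands for a clone, its culture and its library together, and these cannot be told apart.

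Notch receptors are transmembrane proteins that are activated by ligands of the Jagged and Delta-like families on a neighbouring cell. Ligand binding and pulling allow an ADAM protease and then gamma-secretase to cut the receptor, and the released intracellular part enters the nucleus. There it joins the DNA-binding protein RBPJ and a Mastermind coactivator and turns on genes such as those of the Hes and Hey families, which encode basic helix-loop-helix repressors. In mesenchymal tissues Notch signalling is known for roles in cell fate decisions and in the smooth muscle and pericytes that surround vessels, where NOTCH3 is the best known receptor.

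Total counts were 22594316 to 24791198 in clones 2 and 3 and 25261357 in clone 1, so the largest library was 1.12 times the smallest. A level is given as counts per 1000000 counts (CPM) after scaling library sizes by the TMM method. Where different genes are compared, it is divided by the length of the gene's annotated exons (CPM per kb). At this depth a count of 0 allows a level of up to 0.119 to 0.133 CPM, equal to 3 counts. The labelled cell type was set beside fibroblast markers. All 7 were at 1 CPM or more in every clone, led by Col1a1 with a mean of 27713 CPM. Dcn and Lum were low, with means of 7.73 and 2.03 CPM. This bar does not set cell types apart, since 52.2% of all listed genes passed it. The 8 macrophage markers listed in the table were also present in every clone, with a summed level of 340 CPM in clone 1, 1610 in clone 2 and 278 in clone 3. Clone 2 therefore stood apart in these genes. In such bulk samples, fewer cells of a type and less RNA per cell cannot be told apart.

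Of the 10 genes, 8 were expressed, defined as 1 CPM or more in every clone. Over all listed genes this share was 52.2%. The expressed members were the 4 receptors, the ligand Jag1 and the 3 targets. Jag2 passed 1 CPM in 1 clone, and Dll1 in none. The plot of level by clone shows this range, from Jag1 above 150 CPM in every clone to Dll1 at or below 0.198 CPM.

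**Figure D1:**
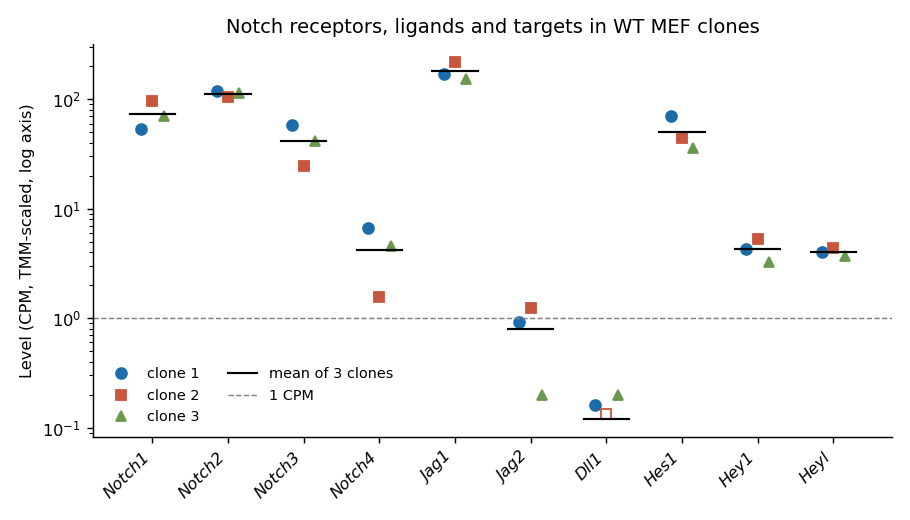
Level of each of the 10 genes in the 3 WT MEF clones, in CPM on a log axis. Points are clones, black bars are means, the dashed line is 1 CPM, and the open symbol is the limit that a count of 0 allows for Dll1 in clone 2. Jag2 and Dll1 have means below 1 CPM, and clone 2 is the highest point for Notch1 and the lowest for Notch3 and Notch4.

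Differences between clones were tested with a chi-square test, which sets a gene's 3 counts against those expected from the library sizes. It was run for every gene that had no clone below 10 counts. It compares 3 libraries beyond counting noise, not conditions. Of the 8 members tested, 7 differed at an adjusted p under 0.05, but so did 62.5% of all 12218 genes tested. A stricter form of the test uses a negative binomial variance with the common spread between these clones, a biological coefficient of variation of 0.187. By this test 1 member differed, Notch4, against 2.57% of all tested genes. The highest clone exceeded the lowest at least 2-fold for 2 members, Notch4 and Notch3, against 8.38% of tested genes. Both were lowest in clone 2, and 2.53% of tested genes were at least 2-fold with the lowest level in clone 2.

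Among the receptors, Notch2 had the highest mean level per length. In GRCm38 its gene is at chr3:98013527-98150361, plus strand. Its counts of 2974, 2355 and 2885 in clones 1, 2 and 3 correspond to 120, 104 and 114 CPM, or 113 ± 7.73 CPM (SD, n = 3 clones). The clones lay close together, with clone 1 only 1.15-fold above clone 2. The chi-square test still called this difference (adjusted p = 1.24e-05), and the call was lost without clone 2 (adjusted p = 0.135). Per kb of exon Notch2 reached 10.5 ± 0.717 CPM.

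Notch1, the receptor best known from T cell development and from leukaemia, is encoded at chr2:26457903-26516663 (minus strand). Its counts were 1331, 2183 and 1758 in clones 1, 2 and 3. These gave 53.6, 96.8 and 69.6 CPM, or 73.3 ± 21.9 CPM. Clone 2 was highest and clone 1 lowest, 1.81-fold apart. The difference passed the chi-square test (adjusted p = 1.89e-66) and did not pass the negative binomial test (adjusted p = 0.873). Among all tested genes, 1440 had a larger range between clones.

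Notch3, the receptor associated with mural cells of arteries, is encoded at chr17:32120820-32166852 (minus strand). It had 1433, 556 and 1043 counts in clones 1, 2 and 3, or 57.7, 24.7 and 41.3 CPM, with a mean of 41.2 ± 16.5 CPM. Clone 1 was highest and clone 2 lowest, 2.34-fold apart, which 607 tested genes exceeded. This passed the chi-square test (adjusted p = 2.13e-66) but not the negative binomial test (adjusted p = 0.309). Without clone 1 the fold was 1.67, and without clone 2 it was 1.40.

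Notch4, a receptor known mainly from endothelium, is encoded at chr17:34564268-34588503 (plus strand). Its 164, 35 and 114 counts gave 6.60, 1.55 and 4.51 CPM in clones 1, 2 and 3, or 4.22 ± 2.54 CPM. The order of the clones was that of Notch3, with clone 1 highest, clone 2 lowest and a 4.25-fold range. Only 168 of the 12218 tested genes had a larger one. It passed the chi-square test (adjusted p = 3.55e-15) and the negative binomial test (adjusted p = 0.0195). The negative binomial adjusted p was 0.0558 without clone 1, 0.956 without clone 2 and 0.0494 without clone 3, and the fold was 2.91 without clone 1 and 1.46 without clone 2.

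With these opposite directions the receptor shares differed between the 3 libraries, although neither Notch1 nor Notch3 passed the negative binomial test. Per kb of exon, Notch2 gave 48.7%, 49.1% and 50.1% of the receptor signal in clones 1, 2 and 3, with a mean of 49.3% ± 0.733 (SD, n = 3). By this length its share hardly moved. With the longest coding transcript the Notch2 share was 45.2%, 42.4% and 45.2%, and Notch1 with 43.5% was ahead of it in clone 2. Per kb of exon, Notch1 gave 16.5%, 34.5% and 23.1%, and Notch3 gave 31.3%, 15.5% and 24.1% in clones 1, 2 and 3. Notch3 was thus ahead of Notch1 in clone 1 and Notch1 ahead in clone 2. In clone 3 the rank depended on the length used, since with the longest coding transcript Notch1 gave 30.5% and Notch3 21.4%. Notch4 gave 3.59%, 0.976% and 2.65%. Of the raw counts of Notch1 and Notch3 together, Notch1 held 48.2% in clone 1 (95% Wilson interval 46.3 to 50.02). The same share was 79.7% in clone 2 (78.2 to 81.2) and 62.8% in clone 3 (61.0 to 64.5). These intervals do not overlap, and they cover counting error only.

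**Figure D2:**
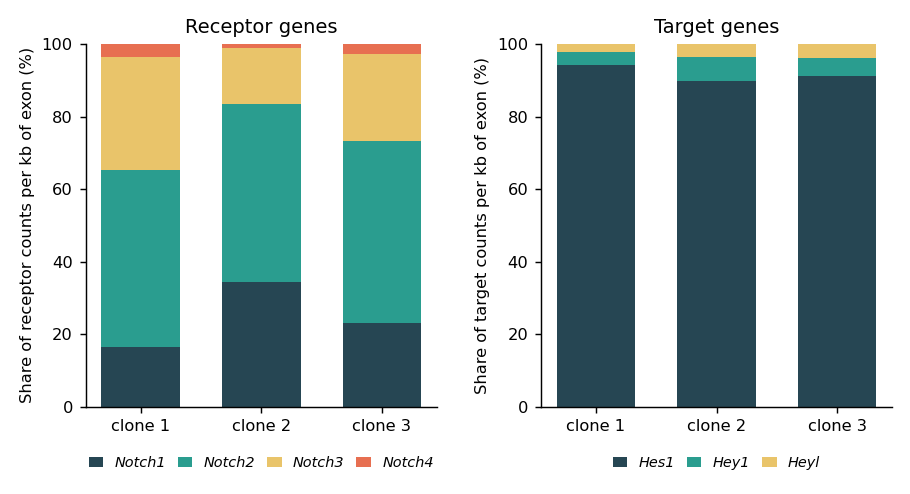
Share of the receptor signal (left) and of the target signal (right) held by each gene in each clone, in percent of counts per kb of annotated exon. Bars are clones and colours are genes. Notch2 stays between 48.7% and 50.1%, the Notch1 share is 16.5% in clone 1 and 34.5% in clone 2, and Hes1 holds 89.8% to 94.3% of the target signal.

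Reads could be shared with neighbouring genes at some loci. Exons of genes on the opposite strand cover 9.76% of the Notch1 exon length (0610009E02Rik and Gm13568) and 6.03% of that of Notch3 (Gm17276). On the same strand Gm42820 covers 5.02% of Notch2. None of these overlapping genes was found by name in the count table, so they have no counts to compare. The strand setting of the counting is not given in the sources used here. Sense and antisense reads at these stretches cannot be told apart.

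For Notch1, Notch3 and Notch4 the 250 bases before the transcription start are shown, from RefSeq on GRCm38.p6. This is reference sequence, not sequence of the clones, and it was not related to the differences between them. The window of Notch1 is chr2:26503823-26504072 on the minus strand, that of Notch3 is chr17:32166891-32167140 on the minus strand and that of Notch4 is chr17:34564045-34564294 on the plus strand. The GENCODE M21 annotation places 2 bases of the Notch1 window in a Notch1 exon, none of the Notch3 window in an exon, and the last 27 bases of the Notch4 window in its 5′ UTR. The whole Notch1 window lies within the annotated span of Notch1. Capitals mark the GC box GGGCGG or its reverse complement CCGCCC, a motif bound by SP1 and related factors.
Notch1: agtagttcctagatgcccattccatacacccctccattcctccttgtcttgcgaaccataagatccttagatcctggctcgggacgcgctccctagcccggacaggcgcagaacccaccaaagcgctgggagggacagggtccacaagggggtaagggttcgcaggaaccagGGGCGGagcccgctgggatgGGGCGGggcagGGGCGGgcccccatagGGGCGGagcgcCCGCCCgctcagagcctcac
Notch3: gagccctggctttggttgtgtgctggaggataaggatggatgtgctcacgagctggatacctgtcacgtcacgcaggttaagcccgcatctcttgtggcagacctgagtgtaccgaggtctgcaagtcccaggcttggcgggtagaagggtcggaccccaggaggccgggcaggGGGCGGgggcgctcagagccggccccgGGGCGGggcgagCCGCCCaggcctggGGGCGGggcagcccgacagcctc
Notch4: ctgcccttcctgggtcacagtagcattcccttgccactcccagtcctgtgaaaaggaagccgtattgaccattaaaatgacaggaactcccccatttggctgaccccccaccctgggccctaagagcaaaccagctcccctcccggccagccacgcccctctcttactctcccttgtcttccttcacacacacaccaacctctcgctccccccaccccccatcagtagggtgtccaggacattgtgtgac

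The Notch1 window held 5 GC boxes, which began 78, 58, 47, 31 and 20 bases before the start. The Notch3 window held 4, at 76, 49, 37 and 23 bases, and the Notch4 window held 0. Of 32851 promoter windows of this length, 32.7% held at least 1. Notch2 and Jag2 had 5 each, and Jag1 and Dll1 had 0. In GENCODE M21, however, all 250 bases of the Jag2 window and 124 of the Jag1 window lie in exons of these genes. Both Dll1 windows lie wholly in annotated exons. Promoter sequences were matched for 7 of the 10 genes, the receptors and ligands. None was matched for the targets Hes1, Hey1 and Heyl, so their promoters were not searched. None of those 7 held the RBPJ motif GTGGGAA or its reverse complement TTCCCAC, which 5.42% of all windows held. A match or its absence describes these letters only.

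Among the ligands, Jag1 held nearly all of the signal. It encodes a Jagged ligand at chr2:137081456-137116644 (minus strand). Its counts of 4199, 4958 and 3882 gave 169, 220 and 154 CPM in clones 1, 2 and 3, or 181 ± 34.6 CPM. Clone 2 was highest and clone 3 lowest, 1.43-fold apart. The chi-square test called this (adjusted p = 1.99e-67) and the negative binomial test did not (adjusted p = 1). Per kb of exon, Jag1 gave 99.4%, 99.5% and 99.7% of the signal of the 3 ligand members, or 99.6% ± 0.152 (SD, n = 3).

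Jag2, the other Jagged ligand, is encoded at chr12:112907819-112929776 (minus strand). It had 23, 28 and 5 counts, or 0.926, 1.24 and 0.198 CPM in clones 1, 2 and 3. Clone 3 was low, and the other clones were within 1.34-fold of each other. The count in clone 3 put it below the filter, so it was not tested. When the filter was a mean of 10 counts, the 6.27-fold range passed the chi-square test (adjusted p = 3.14e-04). So did 7836 of the 12608 genes tested with that filter.

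Dll1, a Delta-like ligand, is encoded at chr17:15367354-15376872 (minus strand). It had 4, 0 and 5 counts in clones 1, 2 and 3, with exact 95% Poisson intervals of 1.09 to 10.2, 0 to 3.69 and 1.62 to 11.7 counts. These overlap, so no difference was detectable at this depth. Exons of A930024N18Rik on the opposite strand cover 20.55% of its exon length. The other Delta-like ligands that activate or modulate Notch were as scarce, with 3, 1 and 3 counts of Dll3 and 5, 0 and 1 counts of Dll4.

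Hes1, the classical Notch target that encodes a repressor of differentiation genes, had the highest level of the targets. The gene is at chr16:30064384-30067796 (plus strand). Its counts were 1763, 1008 and 906, or 71.0, 44.7 and 35.9 CPM in clones 1, 2 and 3, with a mean of 50.5 ± 18.3 CPM. Clone 1 stood above the others, 1.98-fold above clone 3 and with clones 2 and 3 within 1.25-fold. The difference passed the chi-square test (adjusted p = 2.46e-70) and not the negative binomial test (adjusted p = 0.479). Its order of clones was neither that of Notch1 nor that of Jag1, which were both highest in clone 2. Notch2, Notch3 and Notch4 were highest in clone 1, as Hes1 was, but were lowest in clone 2.

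Hey1, a repressor of the related Hey family, is encoded at chr3:8663359-8667256 (minus strand). It had 107, 120 and 83 counts, or 4.31, 5.32 and 3.29 CPM in clones 1, 2 and 3, with a mean of 4.30 ± 1.02 CPM. Clone 2 was 1.62-fold above clone 3. This passed the chi-square test (adjusted p = 0.00607), not the negative binomial test (adjusted p = 1), and the chi-square call was lost without clone 2 (adjusted p = 0.121) and without clone 3 (adjusted p = 0.174).

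Heyl, another member of the Hey family, is encoded at chr4:123233556-123249875 (plus strand). It had 100, 99 and 94 counts, or 4.02, 4.39 and 3.72 CPM in clones 1, 2 and 3, with a mean of 4.05 ± 0.335 CPM. The clones lay within 1.18-fold of each other, and it was the only tested member that missed the chi-square threshold (adjusted p = 0.577). Per kb of exon, Hes1 gave 94.3%, 89.8% and 91.0% of the signal of the 3 targets in clones 1, 2 and 3, or 91.7% ± 2.32. Hey1 gave 5.15% ± 1.55 and Heyl 3.14% ± 0.879.

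By mean level per kb of exon, the order was Jag1 (31.0 CPM per kb), Hes1 (24.8), Notch2 (10.5), Notch1 (5.15), Notch3 (5.09), Hey1 (1.32), Heyl (0.791), Notch4 (0.524), Jag2 (0.113) and Dll1 (0.0284). The ranges over the clones were apart for 5 of the 9 pairs of neighbours. Those not separated were Jag1 and Hes1, Notch1 and Notch3, Heyl and Notch4, and Jag2 and Dll1. With the length of the transcript that has the longest coding sequence, Hes1 came before Jag1 and 3 pairs were apart.

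Over the 8 tested members, the median ratio of highest to lowest clone was 1.71. It was 1.24 over all 12218 tested genes, where the middle 50 percent lay between 1.13 and 1.46 and the 90th percentile was 1.90. In the plot of this fold against level, Notch4, Notch3 and Hes1 lay above the 90th percentile and Notch1 just below it. Of the tested members, 4 were highest in clone 2 (Notch1, Jag1, Hey1 and Heyl) and 3 were lowest there (Notch2, Notch3 and Notch4). The shares over all tested genes were 35.2% highest and 34.8% lowest in clone 2.

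**Figure D3:**
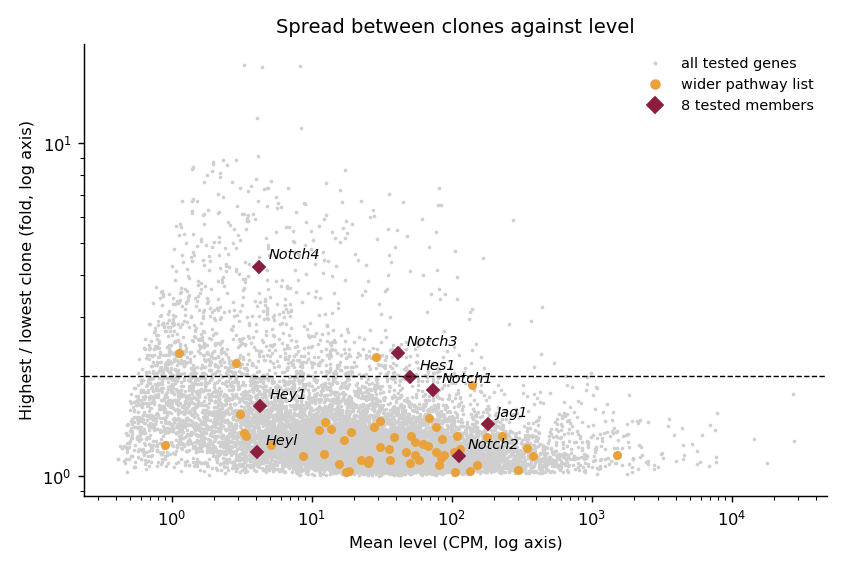
Highest over lowest clone (fold) against mean level (CPM), both on log axes, for the 12218 tested genes (grey), the tested genes of the wider pathway list (orange) and the 8 tested members (diamonds). The dashed line is 2-fold. Notch4 at 4.25-fold and Notch3 at 2.34-fold are the only members above it.

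Markers of other cell types were read beside these differences. Mural cells are the smooth muscle and pericytes that express Notch3. All 9 mural markers were expressed, led by Acta2 with a mean of 6855 CPM, and their sum was 9259, 9099 and 9592 CPM in clones 1, 2 and 3. Acta2 made up most of this sum. Of the 9 markers, 6 were lowest in clone 2, as Notch3 was, against 34.8% of all tested genes. Among these 6, Cspg4 and Mcam were nearly flat, 1.03-fold and 1.09-fold apart. Kcnj8 and Cnn1 were highest in clone 2, and Acta2 was lowest in clone 1. Only 2 of the 6 were at least 2-fold apart, and 2.53% of all tested genes were so and lowest in clone 2. The 2, singled out after their values were seen, were Rgs5 with 283, 26 and 323 counts and Myh11 with 4935, 1801 and 4292 counts. Rgs5, a pericyte marker, was 11.1-fold apart (negative binomial adjusted p = 1.09e-04), and 1.12-fold without clone 2. Myh11, the smooth muscle myosin, was 2.49-fold apart (negative binomial adjusted p = 0.236), and 1.17-fold without clone 2.

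Endothelial cells are the best known source of Notch4. Of the 8 endothelial markers, Tie1 and Cldn5 had 0 counts in every clone, which allows up to 0.133 CPM, and 1 was expressed, Kdr with 163, 214 and 314 counts. The defining markers Cdh5 (4, 6 and 2 counts) and Pecam1 (6, 15 and 6 counts) were near 0, as was Tek (9, 6 and 9 counts). The summed level was 19.7, 10.9 and 22.7 CPM. The low sum in clone 2 came from Emcn, singled out after its values were seen, with 307, 4 and 242 counts. Of the 8 markers, 2 were lowest in clone 2, Emcn and Tek. Another 3 were highest there, Pecam1, Cdh5 and Sox17, all with few counts. Over all tested genes 34.8% were lowest and 35.2% highest in clone 2. The part of mural and endothelial transcripts in the Notch3 and Notch4 levels was not tested.

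All 8 macrophage markers were highest in clone 2 and passed the negative binomial test, led by Lyz2 with 138, 580 and 98.6 CPM. Over all tested genes, 35.2% were highest in clone 2 and 2.57% passed that test. All 6 proliferation markers were also highest in clone 2, and none passed that test. Their sum was 368, 723 and 609 CPM, with clone 3 nearer to clone 2 than to clone 1. The parts of both lists in the higher Notch1 and Jag1 levels of clone 2 were not tested. Fibroblast markers summed to 52344, 42494 and 41143 CPM, highest in clone 1 as Hes1 was, and this was not tested either. Col1a1 and Col1a2 made up most of this sum, while Thy1 and Pdgfra were highest in clone 2. Epithelial markers summed to at most 7.09 CPM, with Krt18 the highest, and neural markers to at most 1.62 CPM, with Neurod1 at 0. Muscle progenitor markers reached at most 0.594 CPM, with Myf5 at 0.

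**Figure D4:**
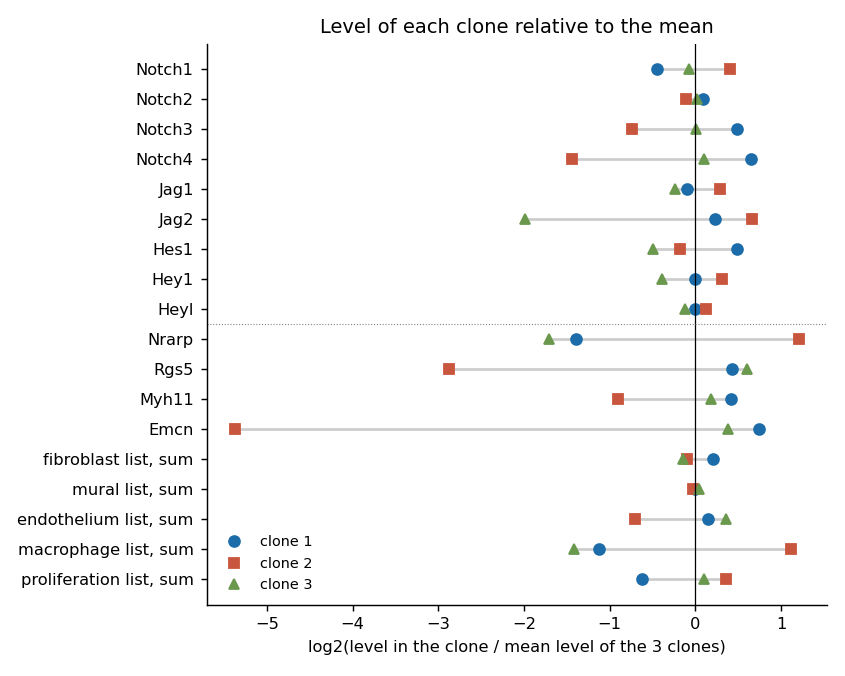
Level of each clone relative to the mean of the 3 clones, on a log2 axis, for 9 of the members (Dll1, with a count of 0, is left out) and below the dotted line for Nrarp, Rgs5, Myh11, Emcn and the summed marker lists. Points are clones. Clone 2 is the lowest point for Notch3, Notch4, Rgs5, Myh11 and Emcn, and the highest for Notch1, Jag1, Nrarp and the macrophage and proliferation sums. Rgs5, Myh11 and Emcn were singled out after their values were seen. Other markers of their lists, such as Kcnj8, Cnn1, Pecam1 and Cdh5, were highest in clone 2 and are not shown singly.

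The rest of the pathway was read from a list of 64 genes, all present in the table. Of these 53 were expressed and 55 could be tested. By chi-square 37 of 55 differed, beside 62.5% of all tested genes, and the negative binomial test called 0. At an unadjusted negative binomial p under 0.05 there were 3 of 55 (5.45%), against 7.24% of all tested genes and 3 of the 8 tested members (37.5%). In the groups below a called gene is one called by the chi-square test, to be read against that 62.5%, and the negative binomial test called 0 in each. The median fold was 1.22, close to the 1.24 over all tested genes. Of the tested genes on the list, 3 were at least 2-fold apart, against 8.38% of tested genes.

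Among further ligands, the microfibril protein and proposed Notch ligand Mfap5 had 41.5, 18.2 and 26.2 CPM in clones 1, 2 and 3, a 2.28-fold range lowest in clone 2. Dlk1, a noncanonical ligand without the domain that activates receptors, had 106, 200 and 110 CPM and was highest in clone 2. The related Dlk2 had a mean of 5.14 ± 0.549 CPM. Of the 4 tested genes of this group, 3 were called. Mfap5 and Dlk1 passed it (adjusted p = 1.49e-49 and 3.90e-205) and did not pass the negative binomial test (adjusted p = 0.268 and 0.330). Without clone 2 Dlk1 was 1.04-fold apart and no longer called by chi-square (adjusted p = 0.279). Without clone 1 the range of Mfap5 was 1.44-fold, and its chi-square call held.

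Of 5 tested glycosylation and processing genes, 2 were called. Furin, the protease that cleaves the receptor precursor, was steady at 297 ± 5.90 CPM and was not called. The Fringe genes, whose glycosyltransferases tune the response to Delta-like and Jagged ligands, differed in level. Lfng had 25.4, 34.1 and 24.4 CPM in clones 1, 2 and 3, and Rfng had 18.6, 14.5 and 17.7 CPM. Both were called, and neither was without clone 2 (chi-square adjusted p = 0.612 and 0.578). Mfng was highest in clone 2, with 1, 26 and 4 counts, and was below the filter. It reached a mean of 10 counts only through clone 2, so its chi-square call under that filter is no support for a difference.

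Genes for ligand endocytosis, which provides the pull on the receptor, were called in 3 of 4 cases. They ranged from Mib2 at 30.7 ± 6.45 CPM to Neurl1a at 3.06 ± 0.770 CPM among those expressed. The call of Mib2 was lost without clone 1 (chi-square adjusted p = 0.438) and that of Neurl1a without clone 2 (0.903). Both ADAM proteases, which make the first activating cut, were called and highest in clone 2. Adam10 had 153, 200 and 185 CPM and Adam17 had 65.1, 91.5 and 76.4 CPM in clones 1, 2 and 3. Per kb of exon Adam10 (36.6 CPM per kb) lay above Adam17 (10.9) in every clone.

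Gamma-secretase subunits were expressed in all cases but 1, and 3 of 7 were called. Ncstn, the subunit that recognises the substrate, had 380 ± 25.4 CPM, and Aph1b had 18.4 ± 0.322 CPM. Aph1c was the exception, with 39, 26 and 17 counts and a 2.33-fold range (chi-square adjusted p = 0.0202, negative binomial adjusted p = 1). Its chi-square call was lost without clone 1 (adjusted p = 0.180) and without clone 3 (0.308).

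All 9 genes of the nuclear complex were expressed, and 6 were called by the chi-square test, near the 62.5% of all tested genes, and 0 by the negative binomial test. Rbpj, the DNA-binding partner of every Notch receptor, had 105, 96.8 and 127 CPM in clones 1, 2 and 3, or 110 ± 15.8 CPM. Its order of clones was not that of any receptor, with clone 3 highest by 1.31-fold (chi-square adjusted p = 1.27e-23, negative binomial adjusted p = 1). Maml3, a Mastermind coactivator, had the fewest counts of this group at 3.26 ± 0.505 CPM.

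Corepressors were all expressed, and 9 of 10 were called by the chi-square test and 0 by the negative binomial test. Tle4, a Groucho family corepressor, had 8.60 ± 0.624 CPM. Of the negative regulators, 10 of 12 were expressed, and 6 of the 10 tested were called. Nedd4, a ubiquitin ligase, had 1513 ± 113 CPM. Dtx3l, of the Deltex family, had 1.85, 4.04 and 2.69 CPM and was 2.18-fold apart, highest in clone 2 (chi-square adjusted p = 1.10e-04, negative binomial adjusted p = 0.676). Its chi-square call was lost without clone 2 (adjusted p = 0.0960), where the range was 1.45-fold.

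Nrarp, itself a Notch target that limits signalling, had 11, 61 and 9 counts in clones 1, 2 and 3, or 0.443, 2.71 and 0.356 CPM. Clone 2 lay above the others as for Notch1, by 7.59-fold over clone 3. It was below the filter by 1 count in clone 3. With a mean of 10 counts as the filter it passed the chi-square test (adjusted p = 5.27e-16). So did 7836 of the 12608 genes tested with that filter, and clone 2 gave most of the Nrarp counts. Dtx1 had 3, 2 and 6 counts.

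Among the other Hes and Hey genes, Hey2 had 82, 89 and 76 counts, or 3.42 ± 0.480 CPM, and was not called (chi-square adjusted p = 0.260). Hes6, a family member that counteracts HES1, had 15.9, 11.6 and 13.9 CPM and was called (chi-square adjusted p = 7.08e-04), which was lost without clone 1 (0.0782) and without clone 2 (0.109). Hes2 had 0, 1 and 0 counts, Hes3 had 7, 0 and 0, and Hes7 had 5, 2 and 2. Among targets outside this family, Ccnd1 had 229 ± 31.5 CPM and Myc 84.9 ± 11.6 CPM, with both highest in clone 2. The chi-square call of Myc was lost without clone 2 (adjusted p = 0.0968). Of the 4 genes of this group that could be tested, 3 were called.

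Hes5, a target in neural progenitors, had 0 counts in every clone, which allows up to 0.133 CPM. Its promoter window is shown because it held the RBPJ motif at 2 places while the windows of the 7 matched members, all receptors or ligands, held none. It is chr4:154960673-154960922 on the plus strand (RefSeq, GRCm38.p6), and 153 of its bases lie in an exon of Gm20421 on the opposite strand. Capitals mark GTGGGAA or its reverse complement.
Hes5: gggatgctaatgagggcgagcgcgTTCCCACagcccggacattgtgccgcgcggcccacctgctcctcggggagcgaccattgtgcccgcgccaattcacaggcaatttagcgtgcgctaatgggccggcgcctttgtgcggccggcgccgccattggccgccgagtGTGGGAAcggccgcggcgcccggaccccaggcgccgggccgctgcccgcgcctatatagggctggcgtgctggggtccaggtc

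The motifs began 226 and 83 bases before the start, 1 on each strand. Hey2, which was expressed, had 1 such motif, 207 bases before its start.

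**Figure D5:**
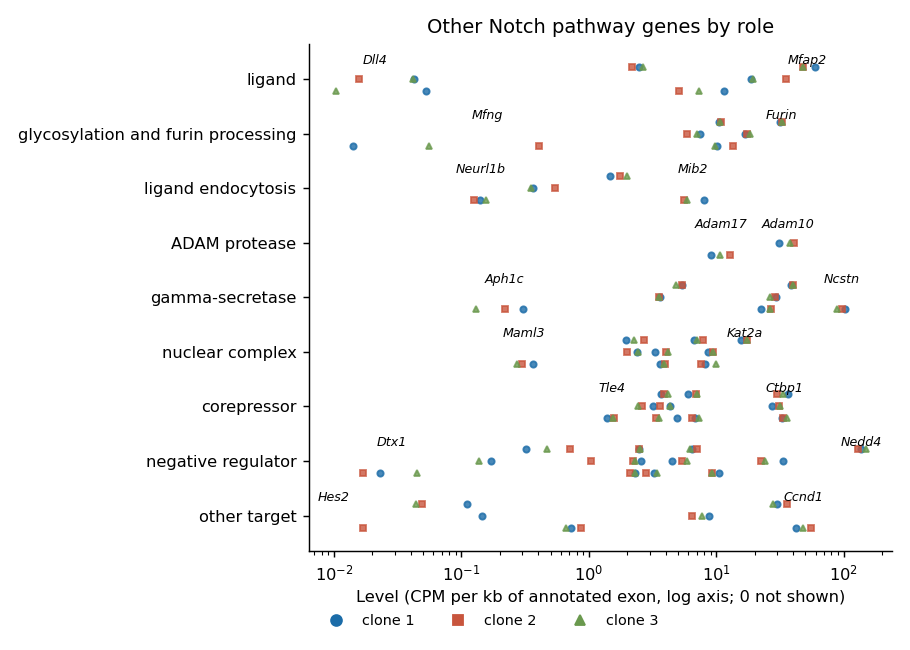
Levels of the wider pathway genes by role, in CPM per kb of annotated exon on a log axis, with 1 point per gene and clone, and values of 0 not shown. The gene with the highest and the one with the lowest mean per kb above 0 are named in each role. The 3 clones of a gene lie close together for most genes, while Mfng, with 26 counts in clone 2 and 1 and 4 in the others, spreads widely.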

How the data were processed

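The data were polyA-selected RNA-seq libraries of 3 WT MEF clones. The authors deposited raw counts per gene. Per their methods, 86-nt single-end reads were aligned with TopHat2 2.0.0 (Bowtie 0.12.7, SAMtools 0.1.16), with up to 2 mismatches and 5 hits per read. HTSeq assigned them to mm10 genes, while the submitters' processing notes list mm9. The HTSeq version, annotation and strand setting are not given in the sources used here.

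Library sizes were scaled by TMM (edgeR 4.0.16, R 4.3.3; DESeq2 1.42.0 as an alternative). The chi-square test (2 degrees of freedom) and its negative binomial form, with edgeR's common dispersion, were run over all genes with no clone below 10 counts, with Benjamini-Hochberg adjustment, in Python 3.11.15 with scipy 1.17.1, and were tested on simulated data. With 1 library per clone, p-values measure the spread between libraries. Exon lengths and positions came from GENCODE M21. Leaving out each clone, other filters, scalings, lengths and pseudocounts were tried. Named genes were all members, core pathway genes, those at least 2-fold apart, the highest and lowest expressed gene of each role, and the highest or absent markers. A gene under this rule is not reported here. Members and lists were chosen with earlier results of these data known.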

Additional observations from a re-analysis of the deposited data

How the results depend on the processing

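Over 21 results and 125 alternatives, 110 alternatives left the value within its margin. These include all 50 alternatives of a member's level, which stayed within 1 SD of it. For those that leave out a clone this was fixed by arithmetic, since with 3 clones such a mean cannot move by 1 SD. Such alternatives are therefore no check of the level. For counts of genes the margin was wide. Without clone 2, 5 called members in place of 7 and 27 called genes of the wider list in place of 37 still fell within it. With a negative binomial variance, the number of members that differed was 1 in place of 7, and of the wider list 0 in place of 37. Members at least 2-fold apart numbered 1 with at least 50 counts in every clone, in place of 2, and 0 to 2 when a clone was left out, with 0 without clone 2 and 1 without clone 1. The wider list had 21 to 34 called genes when a clone was left out, with 21 without clone 1. Its number at least 2-fold apart, 3, became 8 with at least 1 count in every clone, 1 with at least 50 counts, 5 with a mean of 10 counts, 1 with CPM + 1, and 0 to 3 when a clone was left out, with 0 without clone 1 and 1 without clone 2. With the longest coding transcript the Notch2 share was 44.3%, and 3 neighbouring levels were apart. With no length the Hes1 share was 85.1%. Depth limits Dll1, Dll3, Dll4, Hes5 and Jag2, which have 28 counts or fewer in every clone, and 1 library per clone leaves no replicate check within a clone.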
